A study of Homo sapiens with 2 samples.

Results

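Transcripts of 10 genes of the insulin-like growth factor (IGF) axis were examined in KYSE-140 cells, a widely used line from a human squamous carcinoma of the esophagus. The genes were the binding proteins IGFBP2 to IGFBP7, the receptors IGF1R and IGF2R and the RNA-binding proteins IGF2BP2 and IGF2BP3. They were chosen by name, as every probe set annotated to 1 of these symbols, which gave 28 of 54613 probe sets and 10 of 19775 genes. The names were listed with earlier results of these data known, so shares over all genes are only a description beside them. The CD90+ group was the KYSE-140 cells that flow cytometry sorted as positive for the surface glycoprotein CD90, and the CD90- group was the cells sorted as negative. Both came from the same line, and the labels name no treatment, genotype change or time course. Each group was 1 sample of total RNA on 1 Affymetrix U133 Plus 2.0 array, and the deposited values are MAS5 signals, linear intensities. With 1 array per group nothing measures the spread between sorts, so no test could be run, and each fold applies to these 2 RNA samples alone. A single cell line limits the comparison to variation inside that line.

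In the IGF axis, the ligands IGF1 and IGF2 bind the receptor tyrosine kinase IGF1R and signal through insulin receptor substrates to phosphoinositide 3-kinase and AKT, while IGF2R draws IGF2 to the lysosome. The secreted binding proteins hold the ligands in the circulation and in tissue and set how much reaches the receptor, and proteases such as PAPPA cut them and free the ligand. IGF2BP2 and IGF2BP3 are cytoplasmic RNA-binding proteins named for IGF2 mRNA, which bind many other transcripts; IGF2BP3 in particular is a fetal protein that is often present again in carcinomas. In squamous epithelium of the esophagus IGFBP3 is known as a gene that TGF-beta induces.

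IGFBP5, IGFBP6 and IGFBP7 were each more than 2-fold higher in CD90+ cells, while IGFBP2, the receptors and the IGF2BP genes differed by less than 2-fold, and IGFBP3 and IGFBP4 were near background on both arrays. A common floor was set at 71.6, the geometric mean of the medians of both arrays, and signals under it were raised to it before a ratio was taken. The probe set with the highest mean log2 signal stood for a gene, with _x_at probe sets, whose probes can match other genes, passed over unless a gene had no other, and a gene was called measured where that probe set was at or above the floor in CD90+ cells, CD90- cells or both. By this rule 8 of the 10 members were measured. Of these, 3 were at least 2-fold higher in CD90+ cells, 0 were at least 2-fold lower and 5 lay between, whereas 2.47% of all 12466 measured genes were that much higher and 1.75% that much lower. The median log2 ratio, CD90+ over CD90-, was 0.33 over the 8 members and 0.010 over all measured genes. By role, 3 of the 4 measured binding proteins passed the fold, against 0 of 2 receptors and 0 of 2 RNA-binding proteins.

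**Figure D1:**
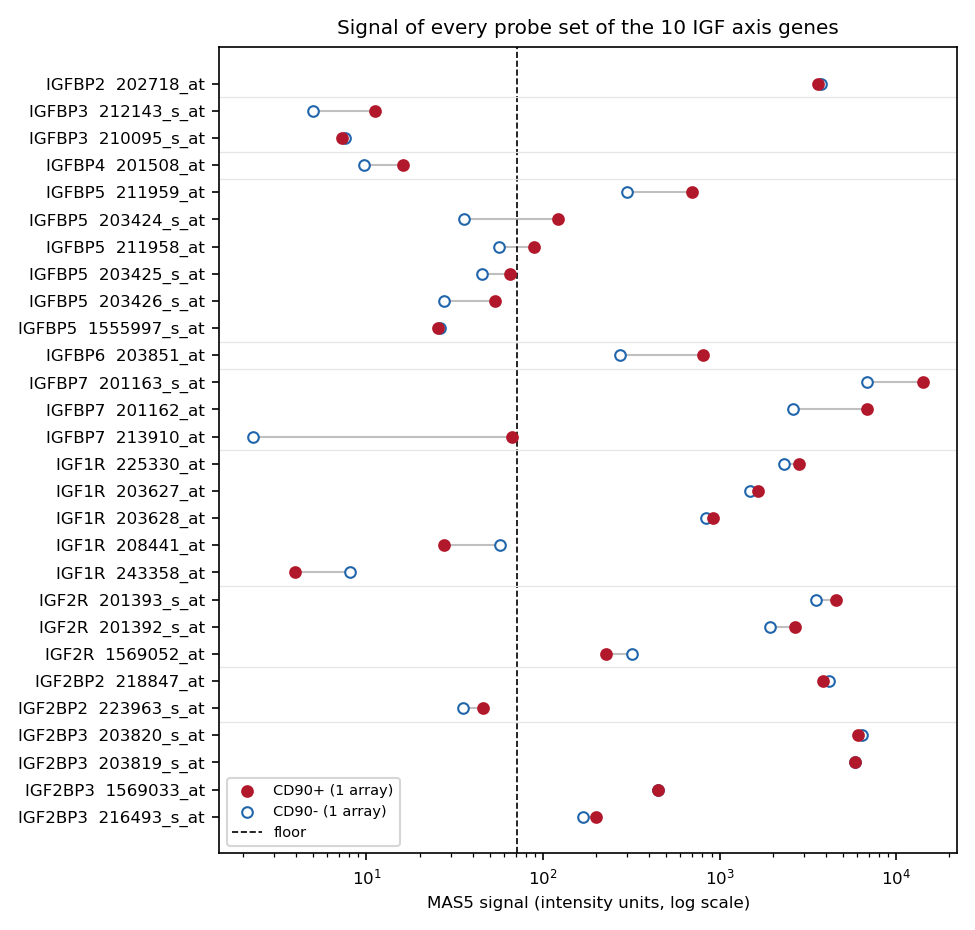
MAS5 signal (log axis) of each of the 28 probe sets of the 10 genes on the CD90+ array (filled) and the CD90- array (open), 1 array each, so without error bars. The dashed line is the floor of 71.6. The pairs of IGFBP5, IGFBP6 and IGFBP7 above the floor lie apart, with CD90+ to the right, and those of IGFBP2, IGF2BP2 and IGF2BP3 nearly coincide.

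Promoter sequence is shown for IGFBP5 and IGFBP6, which were both higher in CD90+ cells, and for IGFBP2, the chromosome 2 neighbour of IGFBP5 that was not. Each line is the 250 bases before the annotated start from RefSeq on GRCh38.p14, 5′ to 3′ on the strand of the gene. Of the 10 members 9 had such an entry, some with several starts, of which the second listed was taken for IGFBP2. The member without an entry was IGFBP7, which was also more than 2-fold higher in CD90+ cells, so its promoter was not searched. Capitals mark matches on either strand to the 5 motifs searched, which were the TATA box TATAAA, the AP-1 element TGANTCA, the E-box CACGTG, the GC box GGGCGG and the ETS core CCGGAA.
IGFBP5 (chr2:216695550-216695799, minus strand): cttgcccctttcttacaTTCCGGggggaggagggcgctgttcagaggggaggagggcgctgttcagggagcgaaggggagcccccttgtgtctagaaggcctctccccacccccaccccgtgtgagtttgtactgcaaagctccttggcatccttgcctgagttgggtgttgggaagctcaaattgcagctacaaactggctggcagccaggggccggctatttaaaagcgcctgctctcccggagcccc
IGFBP6 (chr12:53097417-53097666, plus strand): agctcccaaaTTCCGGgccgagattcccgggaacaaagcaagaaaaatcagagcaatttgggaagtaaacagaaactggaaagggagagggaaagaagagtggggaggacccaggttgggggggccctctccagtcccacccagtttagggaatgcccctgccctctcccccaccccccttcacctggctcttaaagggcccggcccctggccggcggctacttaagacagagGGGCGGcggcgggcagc
IGFBP2 (chr2:216633170-216633419, plus strand): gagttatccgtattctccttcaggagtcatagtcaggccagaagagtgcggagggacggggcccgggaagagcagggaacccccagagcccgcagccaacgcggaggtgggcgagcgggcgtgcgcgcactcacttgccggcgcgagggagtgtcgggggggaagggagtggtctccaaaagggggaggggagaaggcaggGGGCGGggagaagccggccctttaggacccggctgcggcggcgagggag
The ETS core stood in the IGFBP5 window with its first base 233 bases before the start and in the IGFBP6 window at 240 bases, in both as its reverse complement TTCCGG. Over 35114 promoter windows of this length 14.5% held that core, and among the other members so did the windows of IGFBP3, which was under the floor, and IGF2R, which differed by less than 2-fold. A GC box, present in 42.6% of all windows, occurred in the IGFBP6 and IGFBP2 windows. None of the 3 printed windows held the TATA box, the AP-1 element or the E-box in the letters searched, which are in 10.7%, 6.57% and 6.35% of all windows.

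IGFBP6, a binding protein that prefers IGF2 over IGF1, had the largest ratio of the 8 measured members at the floor of 71.6. Its single probe set (203851_at) read 808 in CD90+ cells and 273 in CD90- cells. The CD90+ signal was 2.96-fold that of CD90- cells, a log2 ratio of 1.57, which ranked 103rd from the highest among the 12466 measured genes. No second probe set carried its symbol, so the measurement was not repeated on the array. The 50 measured genes nearest to IGFBP6 by start position had a median log2 ratio of 0.068. Whether a shorter stretch of chromosome 12 shared the difference was not tested.

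IGFBP5 binds both IGF ligands and the extracellular matrix, and is a substrate of the protease PAPPA. Its brightest probe set (211959_at) read 693 in CD90+ cells and 298 in CD90- cells, 2.33-fold higher (log2 ratio 1.22). The other 5 probe sets of the gene were much dimmer. Of these, 203424_s_at read 121 in CD90+ cells and 35.7 in CD90- cells, at least 1.69-fold higher, and 211958_at read 88.5 and 56.5, at least 1.24-fold higher. The last 3 were under the floor on both arrays. They read 65.3 in CD90+ and 45.3 in CD90- cells (203425_s_at), 53.7 and 27.6 (203426_s_at), and 25.4 and 26.2 (1555997_s_at). CD90+ cells thus gave the higher reading on 5 of the 6 probe sets, but 1 of the 3 measured ones passed 2-fold, and the mean log2 ratio of the measured 3 was 0.76. The other values in that mean are bounds, since CD90- cells read under the floor on both dimmer probe sets.

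IGFBP7 is a secreted relative of the family with low affinity for IGFs, known from vessel walls, stroma and senescent cells. It was bright in both fractions. The probe set standing for it (201163_s_at) read 14283 in CD90+ cells and 6828 in CD90- cells, 2.09-fold higher (log2 ratio 1.06). The second (201162_at) read 6870 in CD90+ cells and 2596 in CD90- cells, 2.65-fold higher (log2 ratio 1.40). Both measured probe sets therefore passed 2-fold, and the last (213910_at) lay under the floor on both arrays, at 66.4 in CD90+ and 2.27 in CD90- cells, and gives no fold. Differences of this size were rarer among bright genes: of 4707 measured genes with a mean signal of at least 16 times the floor, the class IGFBP7 falls in, 0.68% were at least 2-fold higher in CD90+ cells. For the class from 4 to 16 times the floor, which holds IGFBP5 and IGFBP6, that share was 2.37% of 3916 genes.

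**Figure D2:**
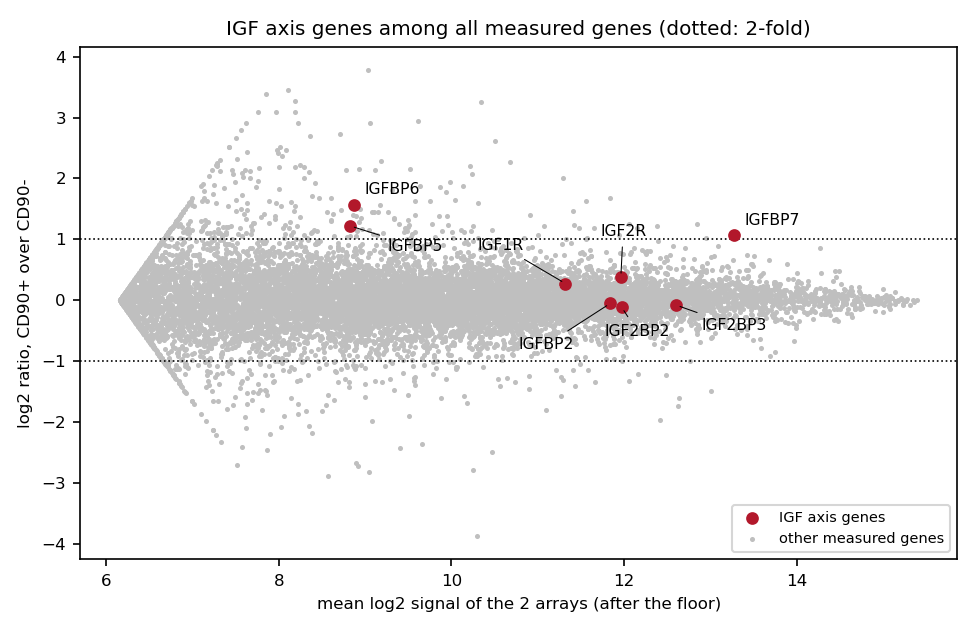
Log2 ratio, CD90+ over CD90-, against the mean log2 signal of both arrays for all 12466 measured genes (grey), with the 8 measured IGF axis genes in red; dotted lines mark 2-fold. IGFBP5, IGFBP6 and IGFBP7 lie above the upper line, IGFBP7 at a signal where few genes do, and the other 5 lie within the main cloud.

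IGFBP2, which circulates in serum and is raised in many carcinomas, had nearly the same signal in both fractions. Its single probe set (202718_at) read 3596 in CD90+ cells and 3733 in CD90- cells, a log2 ratio of -0.05. IGFBP2 and IGFBP5 lie side by side on chromosome 2, and the 50 measured genes around each had the same median log2 ratio of -0.14. The pair of neighbours thus differed from each other in these arrays, with log2 ratios of -0.05 for IGFBP2 and 1.22 for IGFBP5.

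IGFBP3, the main carrier of IGFs in serum, was under the floor on both of its probe sets. They read 11.2 in CD90+ and 4.997 in CD90- cells (212143_s_at) and 7.24 and 7.55 (210095_s_at). IGFBP4, an inhibitor of IGF action and the best known substrate of PAPPA, read 16.1 in CD90+ and 9.70 in CD90- cells (201508_at). A difference in either gene was not detectable at these signals, and no fold is given.

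IGF1R, the signalling receptor, had log2 ratios a little above 0 on all 3 of its measured probe sets. The brightest (225330_at) read 2812 in CD90+ cells and 2326 in CD90- cells, 1.21-fold higher (log2 ratio 0.27). The next read 1651 in CD90+ cells and 1491 in CD90- cells (203627_at), and the dimmest measured one 916 and 840 (203628_at), log2 ratios of 0.15 and 0.12. The remaining probe sets read 27.4 in CD90+ and 57.1 in CD90- cells (208441_at) and 3.93 and 8.07 (243358_at), under the floor throughout. Different measured probe sets of a gene had a pooled SD of log2 ratios of 0.27 where the brightest was at least 16 times the floor, over 3102 genes, and the IGF1R ratios were of about that size or smaller. That SD describes disagreement between probe sets within the same RNA samples and does not measure the spread between sorts.

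IGF2R, the mannose 6-phosphate receptor that carries lysosomal enzymes and removes IGF2, gave probe sets that disagreed. The bright pair read 4548 in CD90+ and 3503 in CD90- cells (201393_s_at) and 2667 and 1920 (201392_s_at), log2 ratios of 0.38 and 0.47. A dimmer probe set (1569052_at) went the other way, with 227 in CD90+ and 321 in CD90- cells and a log2 ratio of -0.50. The direction for IGF2R therefore depends on which probe set is read, and no probe set reached 2-fold.

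IGF2BP3 and IGF2BP2 had nearly equal signals in the sorted fractions. IGF2BP3 read 6052 in CD90+ cells and 6401 in CD90- cells on the probe set standing for it (203820_s_at), 5865 and 5873 on the next (203819_s_at), and 447 and 447 on another (1569033_at). Its dimmest probe set read 200.5 in CD90+ cells and 169 in CD90- cells (216493_s_at), so all 4 lay between log2 ratios of -0.08 and 0.24. IGF2BP2 read 3860 in CD90+ cells and 4181 in CD90- cells (218847_at), a log2 ratio of -0.12, and its other probe set was under the floor at 45.5 and 35.4 (223963_s_at). The IGF2BP2 region of chromosome 3 had a median log2 ratio of -0.21 over the 50 nearest measured genes.

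**Figure D3:**
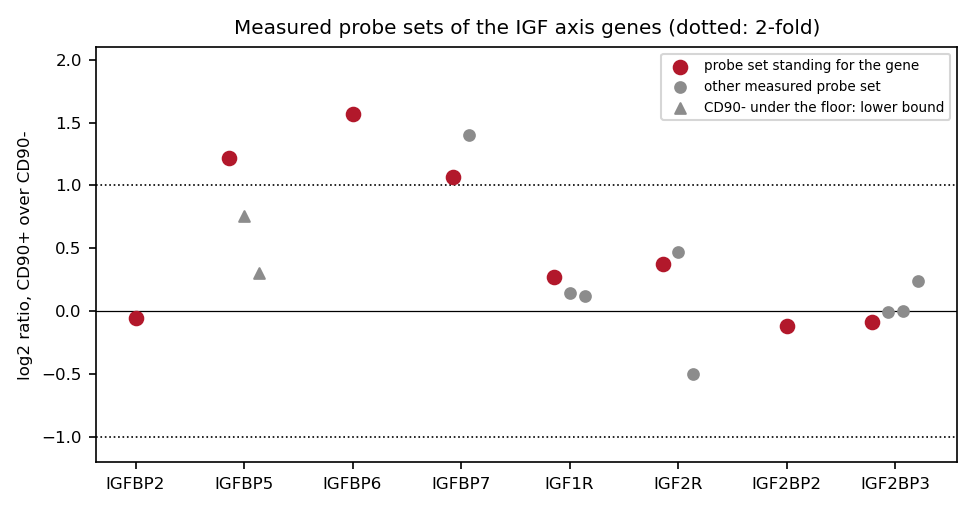
Log2 ratio, CD90+ over CD90-, of the 18 measured probe sets of the 8 measured genes; red marks the probe set standing for the gene, grey the others, and triangles are lower bounds because CD90- cells read under the floor. Dotted lines mark 2-fold, and 4 probe sets, all of IGFBP5, IGFBP6 and IGFBP7, lie above the upper one while 0 lie under the lower one.

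Counted over probe sets, 18 of the 28 were measured, of which 4 passed 2-fold upward in CD90+ cells and 0 passed it downward. Among all 29097 measured probe sets the share at least 2-fold higher was 1.9%, and 1.56% were lower by that much. Probe sets of a gene share that gene's RNA and are not replicates.

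Among the ligands, IGF1 was under the floor on all of its 5 probe sets, as was INS, the insulin gene, on its 1. IGF2 had no probe set with a single gene symbol and was not analysed here. The insulin receptor INSR, which forms hybrids with IGF1R, read 679 in CD90+ cells and 1021 in CD90- cells, a log2 ratio of -0.59. Its 4 measured probe sets all had log2 ratios below 0, the opposite sign to the 3 of IGF1R, and none reached 2-fold.

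Beyond the members, the list of binding proteins and relatives that carry an IGFBP domain held 13 genes, of which 7 were measured. On the probe sets standing for genes, CCN2, a matricellular protein also called connective tissue growth factor, was the 1 of the 7 at least 2-fold higher. It read 416 in CD90+ cells and 134 in CD90- cells, a 3.11-fold difference, where 2.47% of all measured genes were at least 2-fold higher. None of the 7 was at least 2-fold lower, 6 of 7 log2 ratios were above 0, against 51.2% of all measured genes, and the median of the 7 was 0.73. In the lists described below, ratios above 0 were 7 of 8 for reported IGF2BP targets and 4 of 6 for IGFBP proteases, inhibitors and receptors. They were 15 of 25 for adaptors and kinases, 6 of 11 for sorting partners, 4 of 8 for IGF2BP partners and 0 of 1 for other receptors. Singled out after their values were seen, CCN1 read 1904 in CD90+ and 1035 in CD90- cells, the transmembrane protein CRIM1 694 and 404, and the serine protease HTRA1 415 and 249. Other measured probe sets of the IGFBP-domain list did pass 2-fold upward, and none passed it downward. They read 622 in CD90+ and 292 in CD90- cells for CCN1 (210764_s_at) and 624 and 300 for CRIM1 (202551_s_at). For KAZALD1 (217511_at) the readings were 158 and 64.5, at least 2.20-fold, with CD90- cells under the floor. IGFBP1 and IGFALS, a subunit of the serum IGF complex, were under the floor on both arrays.

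PAPPA, the metalloprotease that cuts IGFBP4 and IGFBP5, had the largest difference among the pathway genes. The probe set standing for it (224940_s_at) read 338 in CD90+ cells and 65.9 in CD90- cells, at least 4.72-fold higher. Of its 11 probe sets 6 were measured, 4 of those were at least 2-fold higher and all 6 had log2 ratios above 0. The brightest, of the _x_at class (228128_x_at), read 544 in CD90+ cells and 72.9 in CD90- cells. PAPPA was the 1 gene of 6 measured in the list of IGFBP proteases, their inhibitors and IGFBP3 receptors to pass 2-fold, and none was that much lower. STC2, a stanniocalcin that inhibits PAPPA and was singled out afterwards, gave measured probe sets that disagreed. One read 265 in CD90+ cells and 283 in CD90- cells (203439_s_at), and the other 340 in CD90+ cells and 194 in CD90- cells (203438_at). Over all lists, 2 of 63 measured pathway genes other than members were at least 2-fold higher, or 3.17%, a share near the 2.47% of all measured genes.

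**Figure D4:**
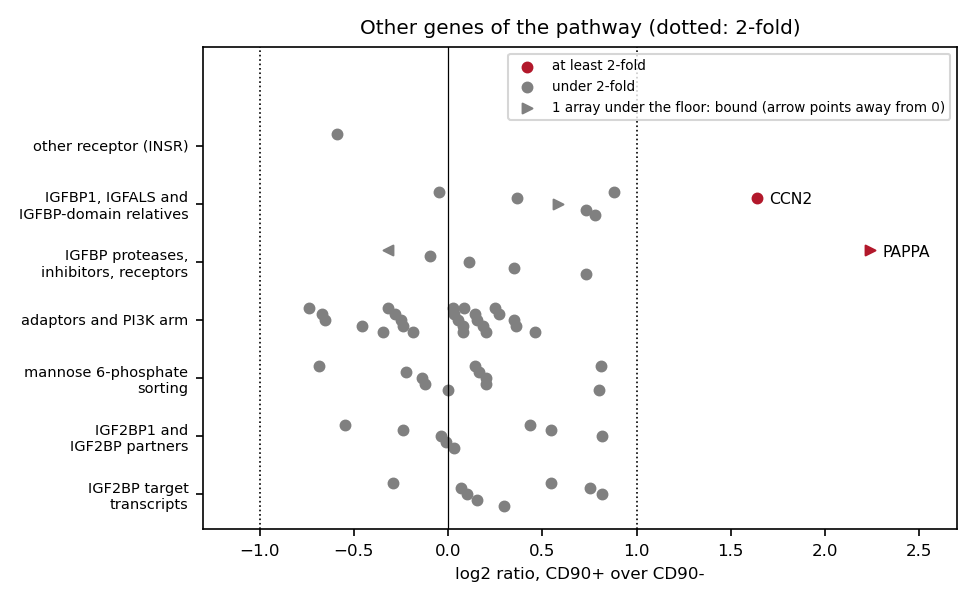
Log2 ratio, CD90+ over CD90-, of the measured genes of 7 lists of other pathway genes, 1 point per gene and list, with arrows for bounds and dotted lines at 2-fold. CCN2 and PAPPA are the points beyond 2-fold; the lists of signalling, sorting and RNA-binding partners lie within the lines.

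In the intracellular arm, none of the 25 measured adaptors, kinases and targets from IRS1 to FOXO3 was beyond 2-fold on the probe set standing for it, and their median log2 ratio was 0.055. With 2.47% of all measured genes that much higher and 1.75% that much lower, 0 of 25 is near the background. The brightest by that probe set were the phosphatase PTPN11, at 12191 in CD90+ and 11926 in CD90- cells, and the small GTPase RHEB, at 7782 and 9187. The lowest ratio among the probe sets standing for genes was in the exchange factor SOS1 (637 in CD90+ and 1062 in CD90- cells, log2 ratio -0.74). Other probe sets of the docking protein GAB1 and the kinase PDPK1 went lower, with 98.4 in CD90+ and 204 in CD90- cells (226002_at) and 347.5 and 696 (32029_at), log2 ratios of -1.05 and -1.002. The probe sets standing for those genes had log2 ratios of -0.28 for GAB1 and 0.08 for PDPK1. The 50 measured genes nearest to SOS1 had a median log2 ratio of -0.27.

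The partners of IGF2R in mannose 6-phosphate sorting were all measured, and 0 of 11 passed 2-fold. With 2.47% of all measured genes that much higher and 1.75% that much lower, this count is near the background. Cathepsin B (CTSB) read 8724 in CD90+ cells and 8731 in CD90- cells, and the sorting adaptor GGA1 2858 and 3106. The largest ratio was in M6PR, the second mannose 6-phosphate receptor, at 2268 in CD90+ cells and 1294 in CD90- cells, 1.75-fold. Its log2 ratio was 0.81, and the 50 measured genes nearest to it had a median log2 ratio of 0.33.

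Of 8 measured relatives and partners of the IGF2BP proteins, 0 passed 2-fold. IGF2BP1 was dim, at 242 in CD90+ cells and 179 in CD90- cells. The RNA-binding proteins YBX1 (24092 in CD90+ and 24761 in CD90- cells) and ELAVL1 (9356 and 9138) were the brightest on the probe sets standing for genes. The poly(A)-binding protein PABPC1 was not counted as measured, because its 1 probe set outside the _x_at class read 4.82 in CD90+ and 36.9 in CD90- cells, but its _x_at probe set read 26395 and 27973 (215157_x_at). Transcripts reported as IGF2BP targets had 0 of 8 measured members beyond 2-fold and a median log2 ratio of 0.23, with ACTB at 29891 in CD90+ and 28537 in CD90- cells and CTNNB1 at 10973 and 10230. For both lists, 0 of 8 is near the background of 2.47% of all measured genes at least 2-fold higher and 1.75% lower.

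The sort and the identity of the cells were checked on marker genes. THY1, which encodes CD90, read 293 in CD90+ cells and 78.9 in CD90- cells, 3.72-fold. Squamous epithelial markers were bright in both fractions, with 6 of 8 analysed and summed signals of 67649 in CD90+ and 69180 in CD90- cells. Because IGFBP5, IGFBP6, IGFBP7 and PAPPA are also expressed by fibroblasts, that marker list is set beside them: 2 of 8 fibroblast markers were measured, the summed signal was 2411 in CD90+ and 1476 in CD90- cells, and COL1A1 made up most of it with 2125 and 1240. The other measured one, PDGFRA, read 106.9 in CD90+ and 107 in CD90- cells. COL1A2, COL3A1, DCN, LUM, FAP and PDGFRB were under the floor on both arrays and give no fold. COL1A2 read 47.5 in CD90+ and 20.9 in CD90- cells, COL3A1 33.8 and 4.66, and FAP 19.3 and 5.31. LUM read 34.8 in CD90+ and 29.9 in CD90- cells, DCN 24.0 and 47.3, and PDGFRB 19.2 and 20.8. Endothelial markers were measured for 1 of 4 genes (summed signal 155 in CD90+ and 102 in CD90- cells) and none of 3 leukocyte markers analysed was (38.5 and 106). The fibroblast sum was higher in CD90+ cells mostly through COL1A1, and its part in the result was not tested. More cells carrying a transcript and more RNA per cell cannot be told apart in such bulk samples.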

How the data were processed

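Total RNA of 1 CD90+ and 1 CD90- sample of KYSE-140 cells was measured on 1 array each; groups came from the cell population label. The deposited intensities are MAS5 signals, per the submitters' processing notes, and their version is not given in the sources used here. MAS5 subtracts mismatch from perfect-match probes, so ratios of dim probe sets vary widely. The 2 to 98% trimmed mean was 499.9 on both arrays, so the authors' values were on a common scale, with medians of 72.1 (CD90+) and 71.1 (CD90-). Of 54675 probe sets 41097 had 1 gene symbol in the platform annotation, updated through the RefSeq table of GRCh38.p14, and 62 controls were left out of gene counts.

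Log2 ratios were taken after the floor, and genes were counted at 2-fold. There was no test, p-value or interval, and precision is limited by the number of arrays. The members and lists were chosen with earlier results of these data known. All members were named, and in each list up to 4 measured genes past 2-fold in each direction, else the 2 brightest. Outside that rule, M6PR, SOS1, GAB1, PDPK1, CCN1, CRIM1, HTRA1, KAZALD1 and STC2 were named after their values were seen. IGF2BP1, PABPC1 and some genes under the floor were also named outside it. The counting was tested on simulated data with changes planted well past 2-fold in genes well above the floor. That test does not bear on calls near 2-fold or on dim genes. Alternatives changed the floor, the normalization (quantile, median, loess with a span of 0.3), the probe set for a gene, the fold (1.5) and the surroundings (50 nearest genes). The software was Python 3.11.15 with pandas 2.3.3, numpy 2.4.6 and, for loess, statsmodels 0.14.6.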

Additional observations from a re-analysis of the deposited data

How the results depend on the processing

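Each member's log2 ratio was recomputed under 10 alternatives, 80 values in all, and 74 moved by less than 0.31, the pooled SD between probe sets of a gene. Many of the 80 could not move, as a floor leaves bright genes unchanged and a single measured probe set leaves no other choice. IGFBP6 (1.03 to 1.59) and IGFBP7 (1.04 to 1.40) stayed at least 2-fold higher in CD90+ cells under all 10, and IGFBP5 under 7. Because IGFBP6 has a single probe set, the changes of probe set could only repeat its main value. For IGFBP5 the floor at the 75th percentile gave 0.80, the mean of its measured probe sets 0.76 and its least changed one 0.31, each leaving 2 members counted as at least 2-fold higher. All 3 values are or include lower bounds with CD90- cells under the floor, so they show neither a difference under 2-fold nor one of 2-fold. The 1.03 of IGFBP6, from the floor at the 75th percentile, is likewise a lower bound. IGF2R was at -0.50 without the _x_at, _s_at and _a_at classes, which leaves its 1 disagreeing probe set. The count of members at least 2-fold lower was 0 under every alternative run, 1.5-fold included, and the members' median stayed between 0.14 and 0.41. Among the 63 other measured pathway genes, CCN2 and PAPPA were the 2 at least 2-fold higher (3.17%), and 0 were lower. With the floor at the 25th percentile, 17.2, 4 were higher, CCN4 and IGFBPL1 besides, and 4 were lower, on probe sets under 71.6 on both arrays, of which PABPC1 has a bright _x_at probe set with a log2 ratio of -0.08. With it at the 75th, 397, 0 were higher, as the floor itself fixes: PAPPA read under it on both arrays and CCN2, at 416, just over it. The median log2 ratio of probe sets above the floor on both arrays, which median scaling removes, was -0.013. No paired analysis was possible because each population is 1 sample.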

Other observations

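Antisense transcripts named for members or for the family were dim. IGFBP7-AS1 read 5.49 in CD90+ and 4.25 in CD90- cells and IGFBP-AS1 36.6 and 10.9, under the floor on both arrays. Of the 4 probe sets of IGF2BP2-AS1 the brightest read 47.9 in CD90+ and 75.4 in CD90- cells, and the other 3 were under the floor.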
